A study of Mus musculus with 12 samples.

Results

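The genes described here encode the RNA-binding proteins that decide which exons of a transcript are joined: the heterogeneous nuclear ribonucleoproteins (hnRNPs) and the serine/arginine-rich (SR) proteins. They were chosen by symbol, as every row of the mRNA table that starts with *Hnrnp*, with *Srsf* or the older *Sfrs* and a digit, or with *Tra2a* or *Tra2b*. The rule found 24 of the 20069 genes, and 21 of the 24 were among the 10198 genes with at least 1 value above 8 reads per base pair (rpbp), taken here as the minimum for an expressed mRNA. The table uses older symbols, in which *Sfrs3* is the present *Srsf3* and *Sfrs10* is the present *Tra2b*. By family, the rule took 6 hnRNP genes, 9 SR protein genes, 2 *Tra2* genes and 7 SR-related genes.

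The mRNA came from the livers of wild-type C57BL/6 mice, all male, 3 to 6 months old, that had lived in a cycle of 12 hr light and 12 hr darkness for at least 2 weeks. Livers were taken at zeitgeber time (ZT, hours after lights on) 2, 6, 10, 14, 18 and 22, in series 1 and again in series 2, so that each time point had 2 samples and the day 12. No genotype or treatment was compared. The question asked of these samples was which mRNAs change over the day.

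hnRNPs coat nascent transcripts, and many of them block splice sites. SR proteins carry an RNA recognition motif and a domain of alternating arginine and serine, bind exonic enhancers and recruit the spliceosome, often against the hnRNPs. The arginine/serine domain is phosphorylated by the SRPK and CLK kinases. Many of these genes limit their own expression through a poison exon, whose inclusion sends the mRNA to nonsense-mediated decay (NMD). In the liver, alternative splicing of many transcripts changes with feeding and with body temperature.

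Both ZT2 samples stood apart from the rest. Their summed signal of 10 hepatocyte markers was 104200 and 107100 rpbp, against 148200 to 186000 rpbp in the other 10 samples. This difference came through *Alb*, at 50450 and 53130 rpbp at ZT2 and 93170 to 122500 rpbp otherwise. Without *Alb*, the sum of the remaining hepatocyte markers overlapped between ZT2 and the other times. The summed signal of the 8 Kupffer cell markers in the table was 612 to 618 rpbp at ZT2 and 303 to 494 rpbp at the other times. The 6 cholangiocyte markers summed to 129 to 230 rpbp at ZT2 and 64.7 to 146 rpbp otherwise, mostly through *Spp1*. In their highest samples *Sox9* reached 11.3 rpbp, *Krt19* 2.48 rpbp, *Krt7* 2.32 rpbp, *Tacstd1* 2.24 rpbp and *Cftr* 0.12 rpbp. The 8 endothelial, 8 stellate and 7 lymphocyte markers overlapped between ZT2 and the other times, the 6 dividing cell markers summed to 11.4 to 12.4 rpbp at ZT2 and 6.80 to 11.4 rpbp otherwise, and the total signal was alike (1518000 to 1546000 against 1487000 to 1542000 rpbp). The 4 red blood cell markers in the table summed to 397 to 513 rpbp at ZT2 and 353 to 1174 rpbp otherwise. The highest was ZT10 of series 2, which also held the lowest value of *Hnrnpa2b1*, *Hnrnpu*, *Hnrnpc*, *Sfrs8* and *Sfrs2ip*. How many of all genes were lowest in that sample was not counted, and a link to the red blood cell signal was not tested. The median correlation with the other samples was 0.944 and 0.946 for the ZT2 samples and 0.961 to 0.972 for the rest. Fewer cells of a type and less RNA per cell cannot be told apart in these samples. Their part in the results below was not tested, and the calls of both tests are given with and without those 2 samples.

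The promoters of *Hnrnpl*, *Sfrs3* and *Tra2a* are shown because they are the members that passed the time point test. They are taken from RefSeq on GRCm38.p6 and run 5′ to 3′ on the strand of the gene, from 250 bases before to 50 bases after the start. Capitals mark a heat shock element (GAANNTTC) or a cAMP response element (TGACGTCA).
Hnrnpl, chr7:28810640-28810939, plus strand: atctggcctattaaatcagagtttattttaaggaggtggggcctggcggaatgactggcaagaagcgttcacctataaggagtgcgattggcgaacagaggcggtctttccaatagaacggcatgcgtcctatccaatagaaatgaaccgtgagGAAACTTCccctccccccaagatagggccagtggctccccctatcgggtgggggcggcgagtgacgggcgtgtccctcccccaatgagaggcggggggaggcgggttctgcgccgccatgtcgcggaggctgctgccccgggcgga
Sfrs3, chr17:29032410-29032709, plus strand: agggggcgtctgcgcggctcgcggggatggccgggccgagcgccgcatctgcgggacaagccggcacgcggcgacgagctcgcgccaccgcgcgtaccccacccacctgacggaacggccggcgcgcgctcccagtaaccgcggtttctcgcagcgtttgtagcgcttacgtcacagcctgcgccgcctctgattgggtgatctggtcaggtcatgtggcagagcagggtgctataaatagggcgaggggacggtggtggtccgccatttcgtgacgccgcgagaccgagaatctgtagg
Tra2a, chr6:49264003-49264302, minus strand: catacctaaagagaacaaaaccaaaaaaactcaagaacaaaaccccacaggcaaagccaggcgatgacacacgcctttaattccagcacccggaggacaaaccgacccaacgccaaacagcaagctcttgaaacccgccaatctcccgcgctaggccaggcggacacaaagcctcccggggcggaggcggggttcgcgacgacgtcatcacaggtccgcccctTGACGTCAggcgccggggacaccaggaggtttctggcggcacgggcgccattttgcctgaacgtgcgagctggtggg

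A search of both strands of these windows for 4 motifs linked to daily expression found few matches among the members, all of which had a promoter in the table (32 promoters for 24 genes). The E-box CACGTG, which CLOCK and BMAL1 can bind, lay in 1 of the 32 (3.12%), that of *Sfrs14*, against 7.15% of all 32851 promoters. The D-box TTATGTAA lay in 0 of the 32, against 0.938% of all. TGACGTCA lay in 1 (3.12%, against 1.79%), that of *Tra2a*, at position 224 of the 300 bases. GAANNTTC lay in 5 (15.6%, against 7.86%), which belong to *Hnrnpa2b1*, *Hnrnpl*, *Sfrs9* and *Sfrs10*. The 2 windows of *Hnrnpa2b1* overlap and hold the same site, and in *Hnrnpl* it began at position 155. The promoters of the members held 64.6% G and C on average (range 48.3% to 80.0%), against 53.8% over the table. A match of letters is a description and says nothing about binding.

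The levels of the members spanned from 2.88 to 207 rpbp, with a median of 35.8 rpbp over the 21 expressed members against 22.9 rpbp over all expressed genes. Since rpbp is a signal per base of exon, levels are set side by side between genes here, but only roughly. The length holds the exons of all isoforms, and the rows *Hnrnpr* and *Hnrpr*, which belong to the same gene, differ in level.

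Among the hnRNP genes, *Hnrnpa2b1*, a packaging protein of nascent transcripts, was highest at 207 ± 16.5 rpbp (SD, n = 12), and its single values lay between 190 and 247 rpbp. *Hnrnpu*, a nuclear scaffold protein, followed at 123 ± 9.92 rpbp. *Hnrnpc*, which binds uridine tracts, stood at 74.1 ± 6.08 rpbp and *Hnrnpl*, which binds CA-rich elements, at 69.3 ± 11.3 rpbp, and their ranges overlapped. *Hnrnpa1*, an antagonist of SR proteins at many exons, stood at 27.3 ± 2.86 rpbp and *Hnrnpr* at 20.1 ± 3.55 rpbp. *Hnrnpa1* has many processed pseudogenes, and sequences without a unique place were left out, so its level is uncertain.

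Among the SR protein genes, *Sfrs5* (157 ± 26.7 rpbp, SD, n = 12) and *Sfrs2* (136 ± 12.4 rpbp) were highest. *Sfrs6* followed at 84.2 ± 8.32 rpbp. *Sfrs1*, the founding SR protein, and *Sfrs3*, a small SR protein that also takes part in mRNA export, were alike at 62.0 ± 6.20 and 61.2 ± 11.3 rpbp. *Sfrs9* lay at 35.8 ± 5.11 rpbp, and *Sfrs4*, *Sfrs11* and *Sfrs7* lay between 26.2 and 30.5 rpbp, with overlapping values. *Tra2a* and *Sfrs10*, the sequence-specific activators of GAA-rich exonic enhancers, stood at 21.3 ± 5.18 and 41.1 ± 4.59 rpbp, and the lowest *Sfrs10* value (33.6 rpbp) lay above the highest *Tra2a* value (28.6 rpbp).

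Among the SR-related genes, *Sfrs2ip* (now *Scaf11*) stood at 30.7 ± 2.37 rpbp, *Sfrs12* (*Srek1*) at 15.2 ± 1.69 rpbp, *Sfrs8* (*Sfswap*) at 9.04 ± 1.06 rpbp and *Sfrs15* (*Scaf4*) at 7.90 ± 0.877 rpbp. *Sfrs17b* (*Akap17b*), *Sfrs16* (*Clasrp*) and *Sfrs14* (*Sugp2*) had no value above 8 rpbp and were tested only where the minimum was dropped.

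**Figure D1:**
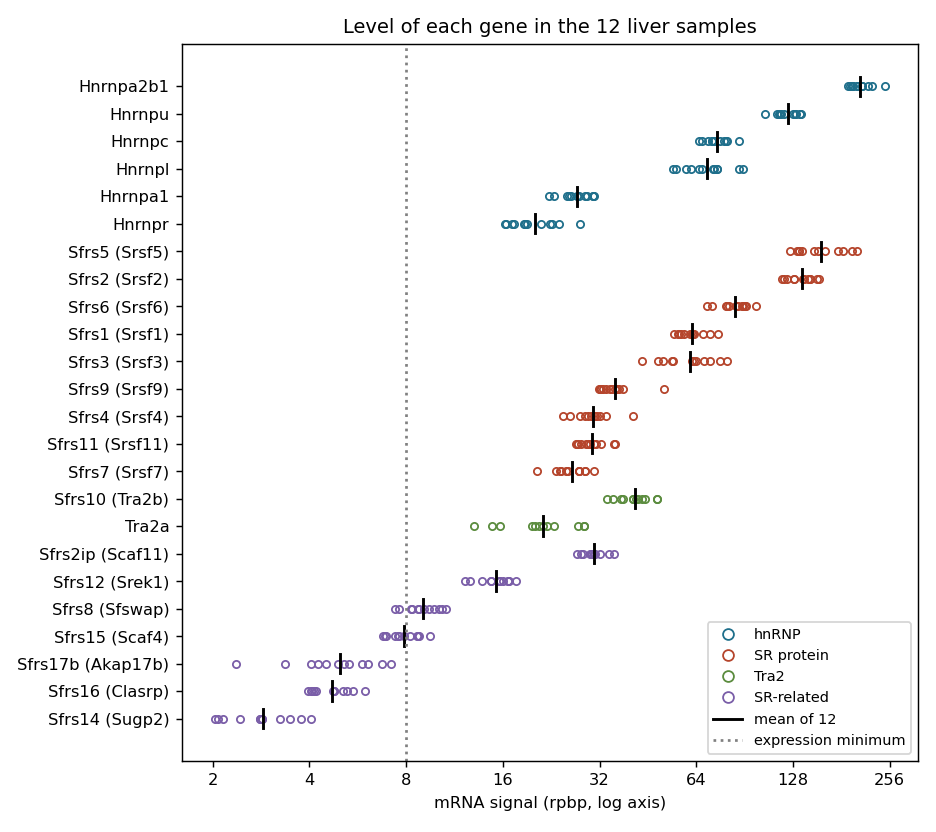
Signal of the 24 genes in reads per base pair (rpbp, log axis), with 1 open circle for each of the 12 samples, a black bar for the mean and a dotted line at the expression minimum of 8 rpbp. Means run from 207 rpbp for *Hnrnpa2b1* to 2.88 rpbp for *Sfrs14*, and the circles of most genes lie close to their bar.

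Most members varied little. The amplitude, the highest over the lowest of the 12 values, had a median of 1.44 among the 21 expressed members and of 1.64 over all expressed genes, and it was above 1.5 in 8 of the 21 (38.1%) against 64.3% of all. The median coefficient of variation was 11.1% against 14.9%. The members were also expressed at a higher level than the median gene, and the part of the level in this difference was not tested. The 4 steadiest were *Hnrnpu* (amplitude 1.29), *Hnrnpa2b1* (1.30), *Sfrs2ip* (1.30) and *Sfrs2* (1.30). The most variable were *Tra2a* (2.20) and *Sfrs3* (1.83), followed by *Hnrnpr* (1.71).

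To ask which members follow a 24 hr rhythm, the share of the variance at 24 hr (F24) was computed over the 12 values. An mRNA was called rhythmic with a permutation p under 0.05, F24 above 0.45 and an amplitude above 1.5. Of the 21 expressed members 3 were called (14.3%): *Hnrnpl*, *Sfrs4* and *Sfrs7*. Over all expressed genes the share was 19.1% (1948 of 10198), so the members were called about as often as the background. A permutation p under 0.05 alone was reached by 4 of the 21, with *Sfrs12* the further one, against 26.6% of all genes. A stricter criterion for strong rhythms, with higher limits on F24 and amplitude, took 0 of the 21 against 7.89% of all genes. With the p adjusted by Benjamini-Hochberg over all 10198 genes, 1 member stayed under 0.05, *Hnrnpl*, against 5.62% of all genes.

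*Hnrnpl* (chr7:29593560-29607285 on mm9, plus strand) was highest in the early light phase. Its values in series 1 and 2 were 89.4 and 87.1 rpbp at ZT2, 66.7 and 72.3 at ZT6, 55.4 and 65.1 at ZT10, 59.3 and 54.0 at ZT14, 61.4 and 74.2 at ZT18, with 74.0 and 72.5 at ZT22. Both ZT2 values lay above the other 10, and the lowest value was at ZT14. The mean fell from 88.3 ± 1.67 rpbp (SD, n = 2) at ZT2 to 56.6 ± 3.79 rpbp at ZT14, a ratio of 1.56 between the time point means. F24 was 0.767 with the peak of the 24 hr component at 1.06 hr (permutation p = 0.0020, adjusted p = 0.0413, amplitude 1.66).

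*Sfrs4* (chr4:131429532-131457640, plus strand), a long SR protein, ran the other way. Its values in series 1 and 2 were 26.0 and 24.6 rpbp at ZT2, 31.0 and 29.4 at ZT6, 28.8 and 32.1 at ZT10, 40.5 and 31.4 at ZT14, 30.1 and 33.4 at ZT18, with 30.6 and 27.7 at ZT22. Both ZT2 values lay below the other 10, and the highest value came from 1 of the ZT14 samples. F24 was 0.542 with a peak at 14.1 hr (permutation p = 0.01, adjusted p = 0.0874, amplitude 1.65). Of its 3580 annotated exon bases, 1551 are shared with the antisense transcript *Gm12992*, and the signal was summed without regard to strand, so reads of the 2 transcripts cannot be told apart.

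*Sfrs7* (chr17:80599429-80606629, minus strand), an SR protein with a zinc knuckle that also works in mRNA export, declined through the day. Its values in series 1 and 2 were 30.8 and 27.6 rpbp at ZT2, 28.8 and 27.6 at ZT6, 28.8 and 24.2 at ZT10, 25.4 and 23.5 at ZT14, 25.2 and 20.4 at ZT18, with 27.7 and 24.0 at ZT22. Series 1 was above series 2 at each of the 6 time points, and the time points overlapped. F24 was 0.563 with a peak at 4.42 hr (permutation p = 0.0233, adjusted p = 0.129). Its amplitude of 1.51 lay just inside the limit of 1.5, and that of *Sfrs12* (1.44, F24 0.628, peak at 15.5 hr, permutation p = 0.0133) just outside.

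All 3 calls rested on the ZT2 samples. Without both of them F24 was 0.663 for *Hnrnpl* (permutation p = 0.0388, amplitude 1.38), 0.335 for *Sfrs4* (p = 0.205, amplitude 1.46) and 0.484 for *Sfrs7* (p = 0.101, amplitude 1.42), and none of the 3 was called, whereas *Tra2a* was, along with 1540 of all genes. Single samples decided 2 of the calls as well. *Sfrs4* was not called without ZT14 of series 1 (amplitude 1.36), and *Sfrs7* was not called without ZT2 of series 1 (amplitude 1.42) or ZT18 of series 2 (amplitude 1.31).

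**Figure D2:**
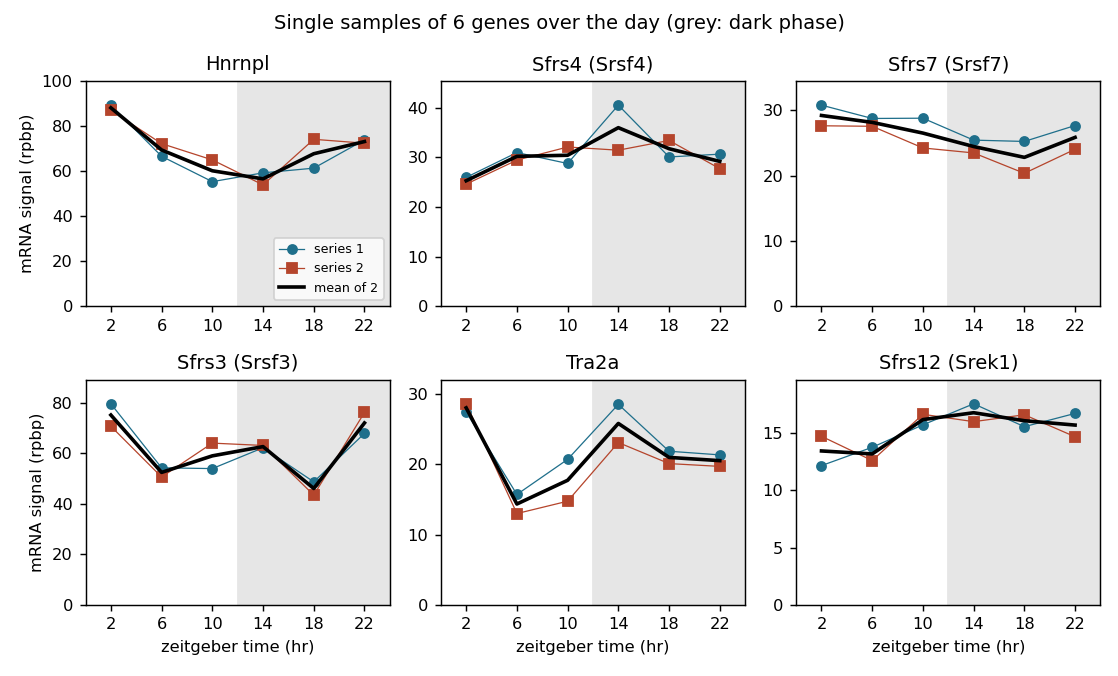
Signal (rpbp) of 6 genes against zeitgeber time (hr), with circles for series 1, squares for series 2, a black line for the mean of 2 samples and grey for the dark phase. *Hnrnpl* falls from 88.3 rpbp at ZT2 to 56.6 rpbp at ZT14, *Sfrs7* is higher in series 1 at each time point, and *Sfrs3* and *Tra2a* have 2 maxima a day.

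**Figure D3:**
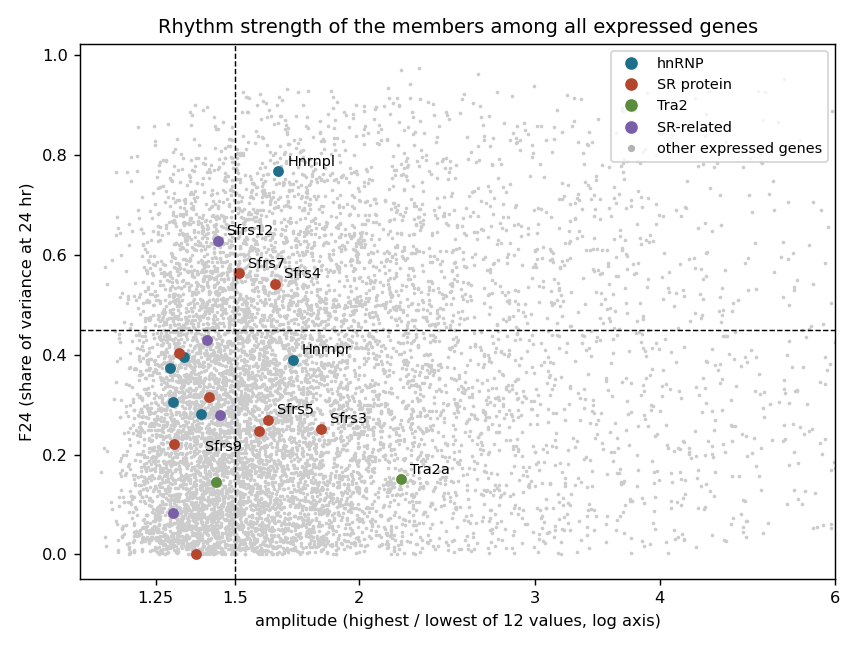
F24 against amplitude (log axis) for the 21 expressed members (coloured by family) and the other expressed genes with an amplitude up to 6 (grey), with dashed lines at the limits of 0.45 and 1.5. *Hnrnpl*, *Sfrs4* and *Sfrs7* lie above both limits, *Sfrs12* lies left of the amplitude limit, and *Tra2a* and *Sfrs3* have large amplitudes with a low F24.

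A rhythm of another shape can be missed by F24, so the 6 time points were also compared with limma's F-test on log2(rpbp + 1). It called 3 of the 21 members (14.3%) at a Benjamini-Hochberg adjusted p under 0.05, against 17.6% of all genes (1792 of 10198). They were *Sfrs3* (adjusted p = 0.0241), *Tra2a* (0.0337) and *Hnrnpl* (0.0484). *Sfrs6* came next (adjusted p = 0.0999), and both of its ZT6 values (71.7 and 69.2 rpbp) lay below the other 10, which were 79.1 to 97.8 rpbp, an arrangement found in 3.49% of all genes.

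*Sfrs3* (chr17:29169618-29180311, plus strand) had 2 maxima and 2 minima a day. Its values in series 1 and 2 were 79.5 and 70.6 rpbp at ZT2, 54.2 and 50.6 at ZT6, 53.9 and 64.0 at ZT10, 62.1 and 63.0 at ZT14, 48.6 and 43.4 at ZT18, with 67.8 and 76.1 at ZT22. Both ZT18 values lay below the other 10 (3.13% of all genes), though not under a scaling by the median of ratios, and the values at ZT2 and ZT22 lay above those of ZT6, ZT10, ZT14 and ZT18. The log2(rpbp + 1) difference between ZT2 and ZT18, the highest and the lowest time point, was 0.69 ± 0.12 (SE). Its F24 was 0.252.

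*Tra2a* (chr6:49193920-49214051, minus strand) was lowest at ZT6 and high at ZT2 and ZT14. Its values in series 1 and 2 were 27.5 and 28.6 rpbp at ZT2, 15.7 and 13.0 at ZT6, 20.7 and 14.8 at ZT10, 28.6 and 23.1 at ZT14, 21.9 and 20.1 at ZT18, with 21.4 and 19.7 at ZT22. The fall from ZT2 to ZT6, from 28.1 ± 0.820 to 14.4 ± 1.92 rpbp (SD, n = 2), was the largest difference between time point means on the log2(rpbp + 1) scale among the expressed members, at 0.93 ± 0.17 (SE). Its F24 was 0.151. *Sfrs10*, the other *Tra2* gene, had means of 46.3 rpbp at ZT2, 37.9 at ZT6, 36.6 at ZT10 and 44.4 at ZT14 and did not pass the test (adjusted p = 0.318).

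These 2 profiles prompted a description by the share of variance at 12 hr, chosen after the values were seen and given with no test. It was 0.673 for *Tra2a* and 0.633 for *Sfrs3*, followed by *Sfrs1* (0.536), *Sfrs10* (0.471) and *Sfrs6* (0.45). *Sfrs1* had a 24 hr share of only 0.00194, with time point means of 68.5 rpbp at ZT2, 56.8 at ZT6, 66.7 at ZT14 and 57.2 at ZT18. The median over the 21 members was 0.241 against 0.202 over all expressed genes. For *Hnrnpl*, *Sfrs4* and *Sfrs7* the 12 hr share was at most 0.048. Without both ZT2 samples it was 0.504 for *Tra2a*, 0.644 for *Sfrs3* and 0.528 for *Sfrs1*, and it dropped to 0.301 for *Sfrs10* and 0.285 for *Sfrs6*. It was then 0.379 for *Hnrnpl*, 0.462 for *Sfrs4* and 0.062 for *Sfrs7*.

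The time point calls also rested on ZT2 and ZT6. Without both ZT2 samples limma's adjusted p was 0.0846 for *Sfrs3*, 0.133 for *Tra2a* and 0.296 for *Hnrnpl*, and 469 of all genes were called in place of 1792. Leaving out either ZT2 or either ZT6 sample left 0 members called, and 7.10% to 8.71% of all genes.

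The time of the highest mean was ZT2 for 13 of the 21 expressed members, against 29.2% of all genes. It was ZT14 for 4 (*Sfrs4*, *Sfrs11*, *Sfrs12* and *Hnrnpc*, against 15.4% of all genes), ZT6 for *Sfrs5* and *Sfrs2ip* (20.3%), and ZT22 for *Sfrs2* and *Hnrnpr* (11.8%). The lowest mean fell at ZT6 for 7 members (16.3% of all genes) and at ZT10 for 6 (18.4%). Under a scaling by the median of ratios, which lowers ZT2 by at most 0.05 on the log2 scale, 12 members were highest at ZT2, against 24.5% of all genes. The members highest at ZT14 were then *Sfrs4*, *Sfrs12*, *Hnrnpu* and *Sfrs2*, while *Hnrnpc* and *Sfrs11* were highest at ZT18 and *Hnrnpr* at ZT22. Both ZT2 values lay above the other 10 in *Hnrnpl*, *Hnrnpa2b1*, *Sfrs8* and *Sfrs15* (4 of 21, with a background of 10.4%), and both lay below in *Sfrs4* (9.58%). Both ZT10 values lay below the other 10 in *Hnrnpu* and *Sfrs15* (4.18%). Under the other scaling *Sfrs15* was no longer among those above at ZT2 (3 of 21, 7.96% of all genes), *Sfrs11* joined *Sfrs4* below at ZT2 (11.8%), *Hnrnpu* was no longer below at ZT10 (3.52%), and *Sfrs3* was no longer below at ZT18 (2.18%). In *Hnrnpa2b1* the ZT2 values were 247 and 225 rpbp against at most 218 rpbp elsewhere, a margin smaller than the gap between the 2 samples.

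**Figure D4:**
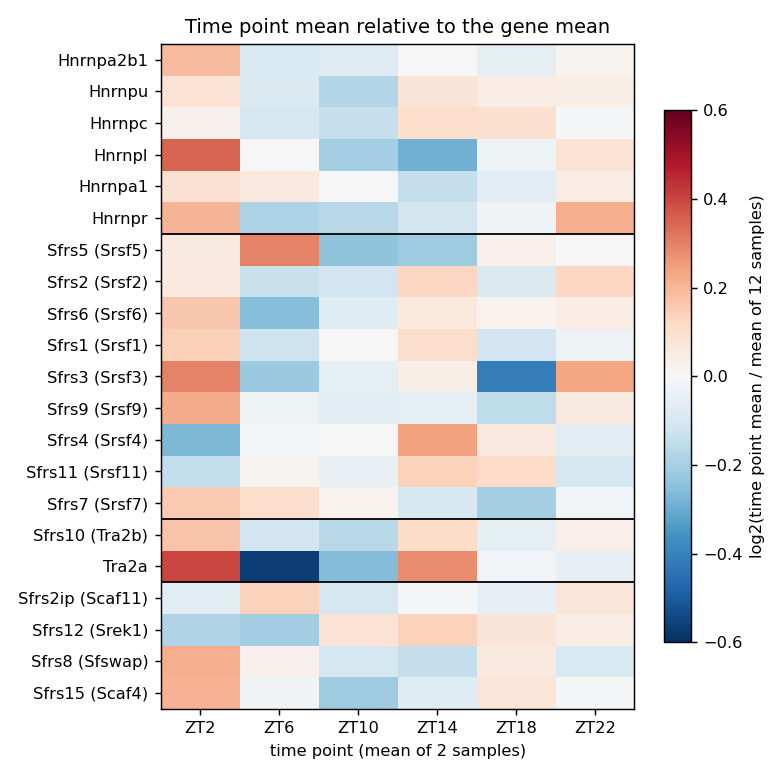
Mean of each time point (2 samples) relative to the mean of the 12 samples, as a log2 ratio in colour, for the 21 expressed members, with black lines between hnRNP, SR protein, *Tra2* and SR-related genes. The ZT2 column is red for most members and blue for *Sfrs4*, *Sfrs11*, *Sfrs2ip* and *Sfrs12*, and the deepest blue is *Tra2a* at ZT6.

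Among the expressed members, *Sfrs5* gave the widest disagreement between 2 samples of a time point. Its values at ZT18 were 125 rpbp in series 1 and 195 rpbp in series 2, the lowest and the second highest of its 12 values, while its ZT6 samples were 202 and 183 rpbp and its ZT10 samples 133 and 132 rpbp. Its adjusted p over the time points was 0.260. It was called rhythmic without ZT18 of series 2, and by the time point test without ZT18 of series 1. *Sfrs9* had a single high value, 50.8 rpbp at ZT2 of series 1, against 32.0 to 37.9 rpbp in the other 11 samples.

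The 2 series were compared with the time point in the fit. limma called 0 of the 21 members and 0 of all 10198 genes at an adjusted p under 0.05 (0.0% of the genes), while 426 genes (4.18%) had an unadjusted p under 0.05. The latter included *Sfrs7* (log2 difference of series 2 minus series 1 -0.18 ± 0.06, SE), *Sfrs10* (-0.17 ± 0.06) and *Tra2a* (-0.20 ± 0.08). The adjusted limma p was 0.993 for each of these 3. *Sfrs7* and *Sfrs10* were lower in series 2 at 6 of 6 time points (2 of 21 members, 9.52%, against 1.59% of all genes) and *Tra2a* at 5 of 6. Of the 21 members 15 (71.4%) were lower in series 2, against 55.5% of all genes.

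The signal sums all isoforms of a gene and cannot separate productive from poison exon mRNA. In the annotation (GENCODE vM1, on the mm9 assembly) 8 of the 21 expressed members (38.1%) had a transcript marked for NMD, against 17.1% of 8641 expressed protein-coding genes. They were *Hnrnpl*, *Hnrnpu*, *Sfrs1*, *Sfrs2*, *Sfrs3*, *Sfrs5*, *Sfrs10* and *Sfrs11*. A transcript with a retained intron was annotated for the same number of members (38.1%), against 35.5%. *Hnrnpl* had 15 annotated transcripts, 7 of them with a retained intron.

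The same tests were read in 4 lists of related genes. The list of hnRNP genes under other names also held further RNA-binding proteins, such as *Rbm3*, *Elavl1* and *Khdrbs1*. Of its 20 expressed genes, 6 were rhythmic (30%, against 19.1% of all genes) and 3 differed among time points (15.0%, against 17.6%). With both ZT2 samples left out, 2 were rhythmic (10%, against 15.1%) and 1 differed (5%, against 4.60%). *Ptbp1*, the polypyrimidine tract-binding repressor, had means of 101 rpbp at ZT2 and 66.1 rpbp at ZT10 (F24 0.728, peak at 0.772 hr, adjusted p = 0.0346), and was not called without ZT2 (amplitude 1.33). *Rbm3*, a cold-inducible protein, was rhythmic and highest at ZT10 (48.7 rpbp, F24 0.629), though not without ZT2 (amplitude 1.47), and *Cirbp*, its relative, was not called (F24 0.397, means of 30.7 rpbp at ZT6 and 19.4 rpbp at ZT10). *Syncrip*, the close relative of *Hnrnpr*, was not called (F24 0.181).

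Of 16 expressed kinases, phosphatases and carriers of SR proteins, 1 was rhythmic (6.25%), *Top1*, and 0 differed among time points by limma (5 of the 16 had an unadjusted p under 0.05, as did 3789 of all 10198 genes). *Clk1* had a mean of 44.2 ± 5.15 rpbp (SD, n = 12) and an F24 of 0.0601, and *Clk4* had 25.0 ± 3.64 rpbp and 0.00714. *Srpk1* had 18.5 ± 2.18 rpbp with an F24 of 0.426, and *Srpk2* had 7.91 ± 1.13 rpbp with 0.267. None of these 4 was called by either test. Of 73 expressed core spliceosome genes, 6 were rhythmic (8.22%) and 5 differed among time points (6.85%), against 19.1% and 17.6% of all genes. Of 30 expressed other splicing regulators, 7 were rhythmic (23.3%) and 5 differed among time points (16.7%). *Rbm25* had the highest F24 among them (17.5 rpbp at ZT2 and 28.5 rpbp at ZT10, F24 0.792, adjusted p = 0.0335), and it was also called rhythmic without ZT2 (F24 0.682). With ZT2 left out, the rhythmic genes were 0 of 16, 5 of 73 (6.85%) and 5 of 30 (16.7%) in these 3 lists, against 15.1% of all genes. By limma 0, 1 (1.37%) and 2 (6.67%) then differed among time points, against 4.60% of all genes.

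hnRNP rows with older symbols (*Hnrp* and a letter) lie outside the rule and number 14, of which 3 (*Hnrpdl*, *Hnrpll* and *Hnrpm*) are also among the 20 above. They were added after the values were seen. Of the 14, 1 was rhythmic (7.14%, against 19.1% of all genes), *Hnrph2* (F24 0.469, amplitude 1.54, highest mean of 88.2 rpbp at ZT2), and 0 differed among time points at an adjusted limma p under 0.05 (against 17.6%, with *Hnrph2* the 1 at an unadjusted p under 0.05). *Hnrpk* had an F24 of 0.778 (permutation p = 0.000800, adjusted p = 0.0280), with means of 159 rpbp at ZT2 and 126 rpbp at ZT18, and its amplitude of 1.37 kept it under the limit. Without both ZT2 samples 0 of the 14 were called by either test (15.1% and 4.60% of all genes), with an F24 of 0.714 for *Hnrpk* (permutation p = 0.0184) and 0.406 for *Hnrph2* (permutation p = 0.141). *Hnrpr* is another row of the gene of *Hnrnpr*, with a mean of 28.4 rpbp against 20.1 rpbp, and both had their 2 highest means at ZT2 and ZT22.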

How the data were processed

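Poly(A) RNA-Seq of 12 mouse livers was analysed, 2 per time point. The authors mapped the sequences with TopHat to mm9, kept those with a unique place, and summed the coverage of both strands over the exons of all isoforms. The deposited signal is that sum per base of exon, in rpbp, which the authors scaled to a fixed number of uniquely mapped sequences. CASAVA 1.8 and TopHat are named in the submitters' processing notes. The deposited columns of the authors' own F24, phase and p-value were not used. The columns headed ZT20 were taken as ZT22, the time in the sample labels. The signal holds no read counts, so no counting interval or count test is given, and the depth of each library is not known from it. The total signal was 1487000 to 1546000 rpbp per sample.

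The signal was multiplied by 4, to the scale on which the study's criteria were set. F24 came from the 12 values, with p from 10000 random orders (seed 1) and the Benjamini-Hochberg adjustment over 10198 genes. limma 3.58.1 (R 4.3.3) tested the time points and the series on log2(rpbp + 1). Python 3.11.15 with numpy 2.4.6 and pandas 2.3.3 did the rest. Alternatives were other minimums, a scaling by the median of ratios, other scales and tests, a series term and leaving out samples. The scripts were tested on simulated data. The samples of the 2 series are separate samples by their labels, and p-values measure the spread between them.

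The members, the lists and the tests were chosen with earlier results of these data known. Genes were named by a rule: members called by either test, the 2 highest and 2 lowest per family, the 4 steadiest, and set genes of the lists with the 3 highest F24. Others named beside them were chosen after their values were seen. A gene of the lists that the rule would name is not reported here. Old symbols were matched to RefSeq by synonyms for all 24 genes. *Sfrs10*, a synonym of 2 genes, was taken as *Tra2b* by its chromosome in the study's tables. Promoters are from RefSeq (GRCm38.p6), and no coordinates were moved between builds.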

Additional observations from a re-analysis of the deposited data

How the results depend on the processing

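The number of members called rhythmic (3) was 4 with no expression minimum (*Sfrs14* added, 13.9% of all genes against 19.1%). It was 3 with a minimum of 16 rpbp (19.9% of all genes) or on either log2 scale (19.3% and 19.2%). After scaling by the median of ratios it was 2 (*Sfrs7* lost, 18.6% of all genes). It was 1 (*Hnrnpl*) with the adjusted p, with the amplitude taken from the time point means, and with limma's test of a cosine and sine, while the share of all genes was 4.81%, 14.5% and 8.12%. Within a single series, with p from all 720 orders of 6 values, it was 0 without replicate 1 and 0 without replicate 2, while all genes called fell from 1948 to 369 and 286. Leaving out single samples gave 2 to 3, with 15.7% to 19.7% of all genes called. Without both ZT2 samples, an alternative chosen after seeing the data, it was 1 (*Tra2a*, 15.1% of all genes).

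The number called by the time point test (3) was 1 with no minimum (*Sfrs3*, 6.07% of all genes against 17.6%). It was 2 with a pseudocount of 0.1 (*Hnrnpl* lost, 16.6% of all genes). Single samples were also left out in turn, which left 1 sample at that time point. *Hnrnpl* stayed under 0.05 only without ZT10 of series 2 or either ZT18 sample (adjusted p 0.0436 to 0.166 over the 12), *Tra2a* only without either ZT10 sample, ZT14 of series 2 or ZT22 of series 1 (0.0180 to 0.107), and *Sfrs3* without any sample other than those of ZT2, those of ZT6 and ZT18 of series 2 (0.0242 to 0.0751). Without both ZT2 samples the number called was 0 (4.60% of all genes). In each case the cause was not tested. The series test called 0 members under each alternative, and the median level of the members was 34.0 to 37.6 rpbp in the single series.

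Over all expressed genes, no common pairing of the samples by series number was seen. Deviations from the time point means correlated at -0.153 to 0.206 over 15 pairs of time points, which cannot exclude a series difference in single genes. With a replicate block 3 members stayed rhythmic (17.7% of all genes), with an F24 of 0.853 for *Sfrs7*, whose adjusted permutation p moved from 0.129 to 0.0455, and 2 were called by the time point test (13.7% of all genes), since *Hnrnpl* had an adjusted p of 0.0659.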
